A study of Homo sapiens with 21 samples.

Results

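The genes described here are the hormone genes INS and IAPP and 8 transcription-factor genes of the beta-cell programme: PDX1, PAX6, PAX4, NKX6-1, NKX2-2, MNX1, MAFA and RFX6. They were chosen by symbol, each of the 10 symbols matched 1 row, and they are 10 of the 62699 genes used from the count table. All 10 passed the low-count filter and were among the 25884 genes tested. RNA sequencing had been done on islet cultures made from H1, an established human embryonic stem cell line, in 4 genotypes: WT, ISL1-/-, PAX6-/- and PDX1-/-. On day 11 the cultures received a lentivirus for blue fluorescent protein (BFP), with or without the islet transcription factor ISL1 (ISL1-IRES2-BFP and BFP vectors), and the fluorescent cells were sorted out on day 18. The 8 groups are WT BFP (replicates 1 and 3), WT ISL1 (1 and 2), PDX1-/- ISL1 (2 and 4), and 3 replicates each of ISL1-/- BFP, ISL1-/- ISL1, PAX6-/- BFP, PAX6-/- ISL1 and PDX1-/- BFP. All groups thus share the vector step and the sort. The submitters describe the samples as biological replicates, and the number of clones behind each knockout line was not given in the sources used here. Libraries were made from bulk RNA, so a gene's lower level cannot be told apart from fewer cells that express it.

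Beta cells of the pancreatic islet make insulin (INS), the hormone that lowers blood glucose, and secrete it together with amylin (IAPP). The factors that build this cell type act in overlapping steps. PDX1 is a homeodomain factor needed to form the pancreas and, later, a direct activator of the insulin and amylin genes; PAX6 sustains hormone gene transcription across islet cell types; PAX4 favours the beta-cell over the alpha-cell fate. RFX6 acts in endocrine progenitors, NKX2-2, NKX6-1 and MNX1 specify and hold beta-cell identity, and MAFA activates INS in mature beta cells. ISL1 is a LIM-homeodomain factor of all islet endocrine cells.

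Homeodomain proteins such as PDX1, NKX6-1, PAX6 and ISL1 recognise short sites with the core TAAT, so the stretches upstream of the hormone genes are shown with each TAAT, or ATTA on the printed strand, in capitals. INS lies on the minus strand of chromosome 11, at 2159779 to 2161221 in the annotation of the count table, and IAPP on the plus strand of chromosome 12, at 21354959 to 21379980. The sequences are from RefSeq (GRCh38.p14), run 5′ to 3′ on the strand of the gene, and cover the 250 bases before the start of transcription, at chr11:2161210-2161459 (minus strand) for INS and chr12:21372652-21372901 (plus strand) for the second of the IAPP starts.

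INS: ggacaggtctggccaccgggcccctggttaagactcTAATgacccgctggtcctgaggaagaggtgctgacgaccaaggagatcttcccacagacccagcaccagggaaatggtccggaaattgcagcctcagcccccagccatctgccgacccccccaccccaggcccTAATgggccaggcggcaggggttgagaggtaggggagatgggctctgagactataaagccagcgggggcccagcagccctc
IAPP: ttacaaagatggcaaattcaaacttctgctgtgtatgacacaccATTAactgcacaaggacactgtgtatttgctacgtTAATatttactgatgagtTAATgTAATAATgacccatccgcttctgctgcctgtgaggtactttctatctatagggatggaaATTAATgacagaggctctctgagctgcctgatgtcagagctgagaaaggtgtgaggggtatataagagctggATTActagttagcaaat

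The INS window held 2 matches, beginning 214 and 81 bases before the start, and the window of the second IAPP start held 8, some of which overlap one another. The window of the first IAPP start, at chr12:21354709-21354958 (plus strand) and not printed, held 2, so the number differs between the 2 IAPP starts; the second is shown because it holds more. At least 2 matches were found in 27.6% of the 35116 RefSeq windows of this length, and at least 8 in 1.12%. These shares are per window and make no allowance for showing the IAPP window that holds more. These matches describe letters in the windows. No binding was measured in this series.

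The edited genes come first, because they check the labels. ISL1, in CPM (counts per M, that is per 1e6, of library size after TMM scaling), was 306 and 519 in WT BFP libraries and 73.7, 74.6 and 82.4 in ISL1-/- BFP libraries. It was lower in ISL1-/- BFP (log2 fold change -2.42 ± 0.39 SE, adjusted p = 0.00126, edgeR quasi-likelihood F test). ISL1 was also lower in PDX1-/- BFP, at a mean of 153 CPM (-1.43 ± 0.39, adjusted p = 0.0254, edgeR). A lower ISL1 count was thus not particular to the ISL1-/- libraries. In the ISL1-labelled libraries of ISL1-/- cells, ISL1 was 71.6, 85.1 and 96.8 CPM, which overlaps the BFP-labelled ones, so the count of this gene did not set the vectors apart. The groups are therefore called ISL1-labelled and BFP-labelled below.

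PDX1 read 80.0 and 102 CPM in WT BFP and 103, 116 and 113 CPM in PDX1-/- BFP. All 3 libraries labelled PDX1-/- lay above both WT ones, with a log2 difference of 0.29 ± 0.23 (adjusted p = 0.541). PAX6 was 140.3 and 232 CPM in WT BFP and 143, 99.5 and 166 CPM in PAX6-/- BFP, with overlapping values and a log2 difference of -0.45 ± 0.45 (adjusted p = 0.672). A count over the whole gene does not show a small deletion or a stop codon, and the count of the edited gene thus did not check the PDX1-/- and PAX6-/- labels. In the annotation, 25.4% of the exon bases of PAX6 are shared with ELP4 on the opposite strand, and whether counting used strand is not given in the sources used here.

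Libraries held between 36.8 and 60.2 M counts. Mitochondrial genes took 3.16% of counts in PAX6-/- ISL1 replicate 3 and 3.84% in PDX1-/- ISL1 replicate 4, against 1.28% to 1.93% in the other 19. Both libraries also stood apart from their own groups in member genes: INS was 2787 CPM in PAX6-/- ISL1 replicate 3 and 25612 CPM in PDX1-/- ISL1 replicate 4. RFX6 was lowest in the same libraries, at 241 and 165 CPM, against 401 CPM or more in the other 19. A single model over all 21 libraries estimated the spread, so the gap between the 2 PDX1-/- ISL1 libraries also enters the error of comparisons between other groups. Leaving out either of them added calls there. Most values given below for such fits are without replicate 4, or without both high-mitochondrial libraries. Some are without PAX6-/- ISL1 replicate 3 or another library, as named. The alpha-cell markers listed further on summed to 121554 CPM in PDX1-/- ISL1 replicate 4 and 14812 CPM in replicate 2, and the delta-cell list to 1411 and 258 CPM. Both sums of replicate 4 were above those of all 4 WT libraries (at most 56924 and 767 CPM). In PAX6-/- ISL1 replicate 3 the sums were 7690 and 505 CPM, above the other 2 of its group. What set the 2 libraries apart was not tested. The count of the edited gene checks neither label, so whether they are the samples their labels name cannot be told from the counts, and each value of PDX1-/- ISL1 and PAX6-/- ISL1 is that of the libraries labelled so.

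INS transcripts were lowest in PDX1-/- cells. The WT BFP libraries had 7185 and 5651 CPM, and the WT ISL1 libraries had 8382 and 6918 CPM. Those of ISL1-/- BFP had 2252, 2392 and 1700.2 CPM. PAX6-/- BFP libraries had 938, 803 and 636 CPM. PDX1-/- BFP libraries had 186, 163 and 87.5 CPM. The 4 BFP-labelled genotypes did not overlap, in the order WT, ISL1-/-, PAX6-/-, PDX1-/-. No step between neighbours in this order was called in the fit of all 21 libraries. Each step was called in 2 of the 21 fits that left out 1 library. A lack of overlap with WT was common among all genes, as given below. Among ISL1-labelled libraries, ISL1-/- had 1894, 2352 and 2472 CPM. In PAX6-/- ISL1 the values were 699 and 970.1 CPM for replicates 1 and 2, besides the 2787 CPM of replicate 3. PDX1-/- ISL1 replicate 2 had 164 CPM, inside the range of the BFP-labelled PDX1-/- libraries, whereas replicate 4, at 25612 CPM, was above every other library.

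IAPP was scarce everywhere and lower still in the knockouts. It reached 8.24 and 7.92 CPM in WT BFP and 9.51 and 10.3 CPM in WT ISL1. In ISL1-/- BFP it was 0.159, 0.156 and 0.124 CPM, which rests on 8 or 9 counts per library. PAX6-/- BFP libraries gave 0.332, 0.286 and 0.473 CPM, and PDX1-/- BFP libraries 0.312, 0.607 and 0.306 CPM. Every BFP-labelled knockout library was thus far below both WT ones, and ISL1-/- was below the other knockouts without overlap. The differences of ISL1-/- from PAX6-/- and from PDX1-/- were not called with all 21 libraries. Nor were they called in any of the 21 fits that left out 1. The ISL1-labelled libraries of ISL1-/- cells gave 0.442, 0.831 and 0.666 CPM. Those of PAX6-/- cells gave 0.213, 0.526 and 1.89 CPM, the last again in replicate 3. In PDX1-/- ISL1, replicate 2 gave 0.617 CPM and replicate 4 gave 19.0 CPM.

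**Figure D1:**
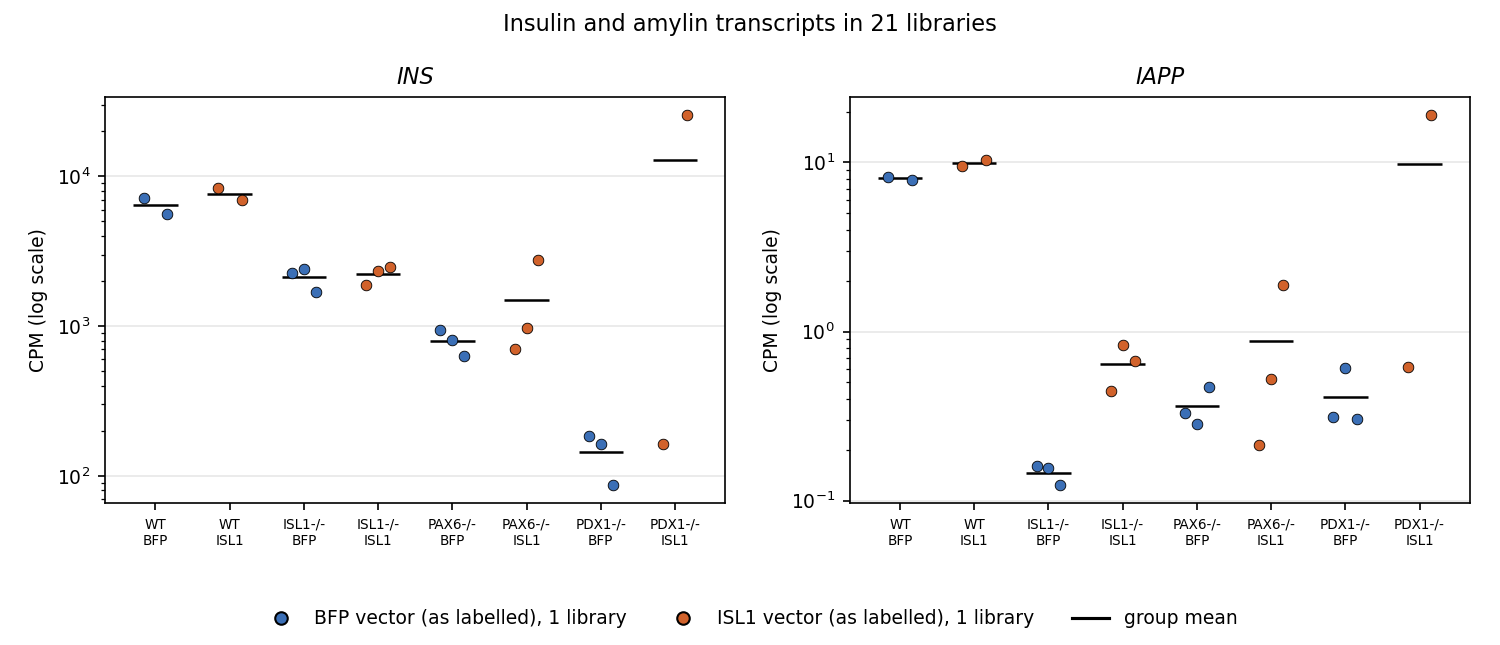
CPM of INS (left) and IAPP (right) on log axes in the 8 groups; each point is 1 library, blue for BFP-labelled and orange for ISL1-labelled, and the line is the group mean. The PDX1-/- ISL1 mean stands between 2 points that differ widely, 164 and 25612 CPM for INS.

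The WT BFP libraries serve all 3 knockout comparisons in BFP-labelled cells, so the 3 sets of values share their controls. IAPP fell in each of them. The log2 fold change was -5.77 ± 0.99 in ISL1-/- (adjusted p = 0.00196), -4.47 ± 0.92 in PAX6-/- (adjusted p = 0.00896) and -4.29 ± 0.91 in PDX1-/- (adjusted p = 0.00598; edgeR quasi-likelihood F test). Without PAX6-/- BFP replicate 1, the PAX6-/- value had an adjusted p of 0.0516. INS fell in PDX1-/- (-5.46 ± 1.06, adjusted p = 0.00361). Its log2 difference was -3.02 ± 0.97 in PAX6-/- (adjusted p = 0.081) and -1.60 ± 0.94 in ISL1-/- (adjusted p = 0.388), though neither group overlapped WT. Leaving out both high-mitochondrial libraries, a choice made after seeing the data, hardly moved the INS differences. They were then -3.03 ± 0.26 in PAX6-/- and -1.58 ± 0.25 in ISL1-/-. Both were called in that fit, in which calls over all genes rose too, as given below.

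The proportion of INS to IAPP varied between genotypes. The count ratio of INS to IAPP was 673 to 881 in the 4 WT libraries and 13663 to 15336 in ISL1-/- BFP. In ISL1-labelled ISL1-/- libraries it was 2830 to 4282. PAX6-/- BFP libraries had 1346 to 2827, and PDX1-/- BFP libraries 268 to 598. PAX6-/- ISL1 libraries had 1476 to 3279, and the 2 of PDX1-/- ISL1 had 266 and 1346, the latter in replicate 4. Among BFP-labelled libraries the ratio was thus highest in ISL1-/-, where the IAPP count was smallest, and lowest in PDX1-/-; with 8 to 34 IAPP counts in each BFP-labelled knockout library these ratios are coarse.

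The 4 other islet hormones put the INS level in context: glucagon (GCG, alpha cells), somatostatin (SST, delta cells), pancreatic polypeptide (PPY) and ghrelin (GHRL, epsilon cells). Of the summed CPM of the 5 genes, INS made up 9.88% to 19.5% in WT libraries, most of the rest being GCG. In ISL1-/- BFP it made up 92.6% to 95.5%, although its CPM was below that of WT, and GCG fell: it averaged 83.5 CPM there and 43781 CPM in WT BFP (log2 fold change -9.03 ± 1.16, adjusted p = 0.000211, edgeR). In ISL1-labelled ISL1-/- libraries, INS made up 31.3% to 46.3% and GCG 52.9% to 67.9%. GHRL made up 75.4% to 83.8% in PAX6-/- BFP, where INS made up 14.1% to 24%. In PDX1-/- BFP, GCG made up 97.7% to 98.9% and INS 0.532% to 1.22%.

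**Figure D2:**
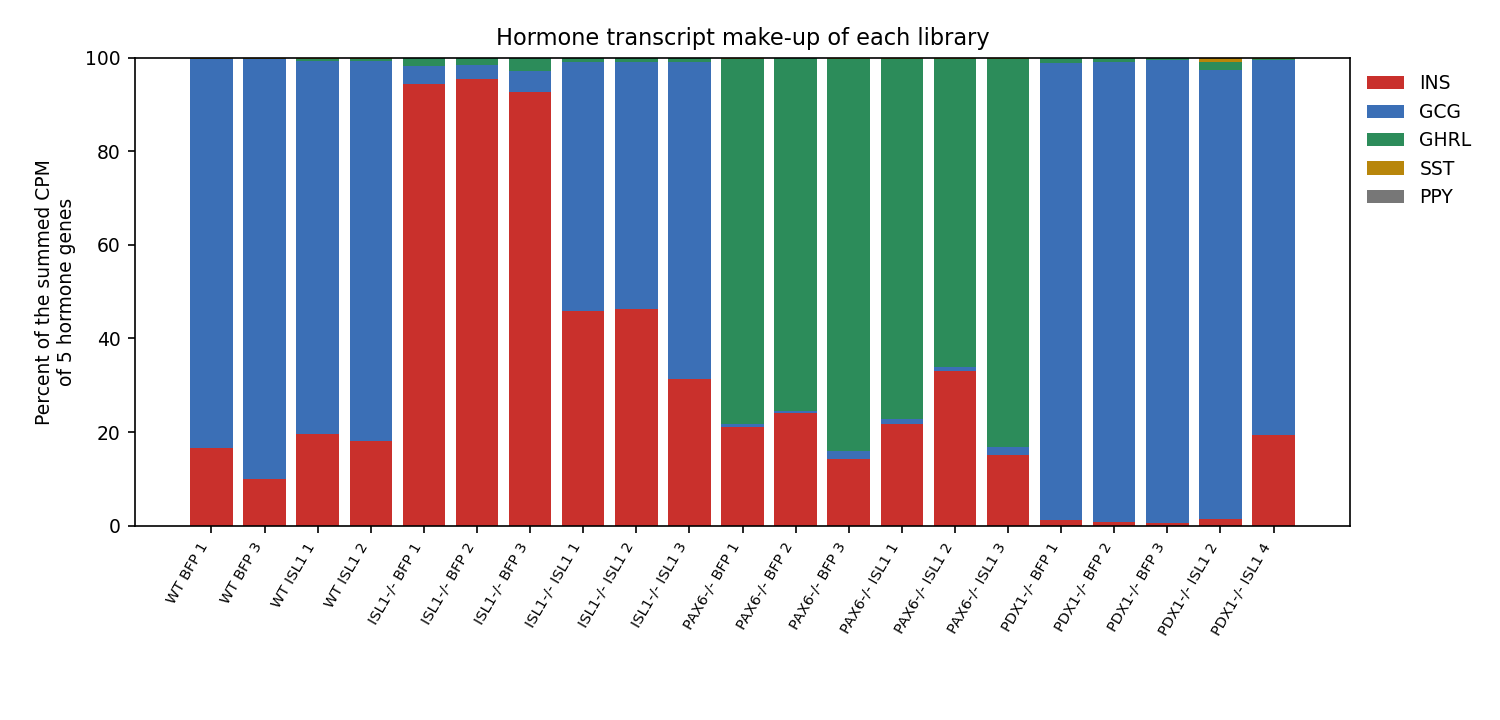
Share of each of 5 hormone genes in their summed CPM, in percent, for each of the 21 libraries. INS takes 92.6% to 95.5% in ISL1-/- BFP and at most 1.22% in PDX1-/- BFP.

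The alpha-cell list (GCG, IRX1, IRX2, TTR, LOXL4, GC, DPP4, PLCE1, TM4SF4) had a lower summed level in the BFP-labelled knockouts than in WT, in another order than INS. GCG made up most of the sum in WT BFP, at a mean of 43781 CPM, and in PDX1-/- BFP, so the sum largely repeats the GCG result. In ISL1-/- and PAX6-/- BFP, GCG averaged 83.5 and 40.9 CPM. Of its 9 genes, 6 were lower in ISL1-/- BFP than in WT BFP, 5 were lower in PAX6-/- BFP, and 3 were lower and 1 higher in PDX1-/- BFP. The shares called among all genes tested were 5.59%, 5.51% and 9.68%, more of them lower than higher in each. The summed CPM of the list was 42463 to 56924 in WT BFP and 991 to 1205 in ISL1-/- BFP. It was 1518 to 2174 in PAX6-/- BFP and 17183 to 21919 in PDX1-/- BFP. The sum was thus highest among the knockouts in PDX1-/-, where INS was lowest, and lowest in ISL1-/-, where INS was highest. None of these genes was at 0 throughout a group. The part of the alpha-cell markers in the INS and IAPP results was not tested.

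In the fit of all 21 libraries, none of the 8 transcription-factor genes was called lower than WT in BFP-labelled cells, and 4 were called higher in at least 1 knockout. The absence of lower calls depended on that fit: PAX4 in PDX1-/- was called lower when PDX1-/- ISL1 replicate 4 was left out. PAX6 lay below both WT libraries in ISL1-/- and PDX1-/- BFP. It was not called there with all 21 libraries, nor in any of the 21 fits that left out 1. Other ways of fitting, given under the dependence on processing, called more members in both comparisons. The members added by those fits are not all named here, so a lower call of PAX6 among them is not excluded. NKX6-1, which holds beta-cell identity (chr4:84491985-84499292, minus strand), had 46.0 and 79.6 CPM in WT BFP. It had 203, 199.8 and 253 CPM in ISL1-/- BFP. In PAX6-/- BFP it had 153, 87.8 and 143 CPM, and in PDX1-/- BFP 320.0, 302 and 357 CPM. All 9 BFP-labelled knockout libraries were above both WT libraries. NKX6-1 rose in ISL1-/- (1.80 ± 0.39, adjusted p = 0.0103) and in PDX1-/- (2.38 ± 0.40, adjusted p = 0.00142), and in PAX6-/- the log2 difference was 1.03 ± 0.38 (adjusted p = 0.130, or 0.0194 without PDX1-/- ISL1 replicate 4; edgeR). The ISL1-/- rise was not called without WT BFP replicate 1 (adjusted p = 0.187).

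MNX1, a homeodomain factor of early pancreas and beta cells (chr7:156994051-157010663, minus strand), had 58.4 and 89.3 CPM in WT BFP and 230.3, 224 and 327 CPM in ISL1-/- BFP. It had 173, 136 and 149 CPM in PAX6-/- BFP and 317, 428 and 325 CPM in PDX1-/- BFP. Again no knockout library fell within the WT range. MNX1 rose in ISL1-/- (1.82 ± 0.36, adjusted p = 0.00545; 0.123 without WT BFP replicate 1) and in PDX1-/- (2.27 ± 0.37, adjusted p = 0.00104), and its PAX6-/- difference was 1.05 ± 0.35 (adjusted p = 0.0905, or 0.00886 without PDX1-/- ISL1 replicate 4; edgeR).

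NKX2-2 (chr20:21511017-21514064, minus strand), a factor without which beta cells do not form in mice, had 10.6 and 18.5 CPM in WT BFP. It had 28.5, 23.7 and 41.8 CPM in ISL1-/- BFP, and 57.6, 41.0 and 69.7 CPM in PAX6-/- BFP. PDX1-/- BFP libraries had 54.4, 57.2 and 59.4 CPM. Each knockout library exceeded both WT libraries. The rise passed the test in PAX6-/- (1.95 ± 0.46, adjusted p = 0.0188) and in PDX1-/- (1.97 ± 0.46, adjusted p = 0.0105), but not in ISL1-/- (1.11 ± 0.44, adjusted p = 0.165, edgeR). Of the 21 fits that left out 1 library, 1 called it in ISL1-/-, that without PAX6-/- ISL1 replicate 3 (adjusted p = 0.0282). Without WT BFP replicate 1 the adjusted p was 0.245 in PAX6-/- and 0.185 in PDX1-/-, and the PAX6-/- call was also lost without WT BFP replicate 3 (0.0809), PAX6-/- BFP replicate 1 (0.0562) or PAX6-/- BFP replicate 3 (0.0685).

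PAX4 (chr7:127610292-127618142, minus strand), a paired-box factor of endocrine progenitors, was high in PAX6-/- cells. Its levels were 68.5 and 120.5 CPM in WT BFP, 63.6, 63.5 and 76.4 CPM in ISL1-/- BFP and 58.6, 60.6 and 54.0 CPM in PDX1-/- BFP. In PAX6-/- BFP they were 210.5, 168 and 241 CPM, above every other BFP-labelled library. PAX4 rose in PAX6-/- over WT (1.13 ± 0.30, adjusted p = 0.0355), a call lost without WT BFP replicate 1 (adjusted p = 0.406) or 3 (0.0589) and without PAX6-/- BFP replicate 1 (0.0957) or 3 (0.123). Its differences were -0.48 ± 0.29 in ISL1-/- (adjusted p = 0.401) and -0.71 ± 0.29 in PDX1-/- (adjusted p = 0.140, or 0.0478 without PDX1-/- ISL1 replicate 4; edgeR).

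MAFA, the bZIP activator of INS in mature beta cells, was at the edge of detection, with 30 and 42 counts in WT BFP. It had 0.659 and 1.27 CPM there, 2.69, 2.25 and 3.34 CPM in ISL1-/- BFP, 2.39, 1.75 and 1.31 CPM in PAX6-/- BFP and 4.78, 2.97 and 4.61 CPM in PDX1-/- BFP. All knockout libraries were above both WT libraries, by a small margin in PAX6-/-. The log2 differences were 1.53 ± 0.71, 0.92 ± 0.70 and 2.1 ± 0.73, and none passed the test (adjusted p = 0.250, 0.544 and 0.079; edgeR). Fitted without PDX1-/- ISL1 replicate 4, the last was called (adjusted p = 0.00859).

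RFX6 (chr6:116877212-116932161, plus strand) and PDX1 (chr13:27920000-27926313, plus strand) showed the smallest differences from WT of the 10 genes in each knockout. RFX6, a winged-helix factor of endocrine progenitors and beta cells, ranged from 408 to 564 CPM over the 11 BFP-labelled libraries, and its differences from WT were -0.07, 0.18 and 0.01 in ISL1-/-, PAX6-/- and PDX1-/-, each with an SE of 0.33 or 0.34. PDX1 ranged from 63.3 to 116 CPM there, with a difference of 0.02 ± 0.23 in ISL1-/- and -0.28 ± 0.23 in PAX6-/-. PAX6 (chr11:31784779-31817961, minus strand) had 73.5, 71.4 and 111 CPM in ISL1-/- BFP and 98.6, 113 and 117 CPM in PDX1-/- BFP, all below the WT values of 140.3 and 232 CPM. In the fit of all 21 libraries its differences were -1.12 ± 0.45 (adjusted p = 0.164) and -0.77 ± 0.45 (adjusted p = 0.348; edgeR). Without PAX6-/- ISL1 replicate 3, the ISL1-/- difference of PAX6 was -1.12 ± 0.35 (adjusted p = 0.0508, edgeR).

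**Figure D3:**
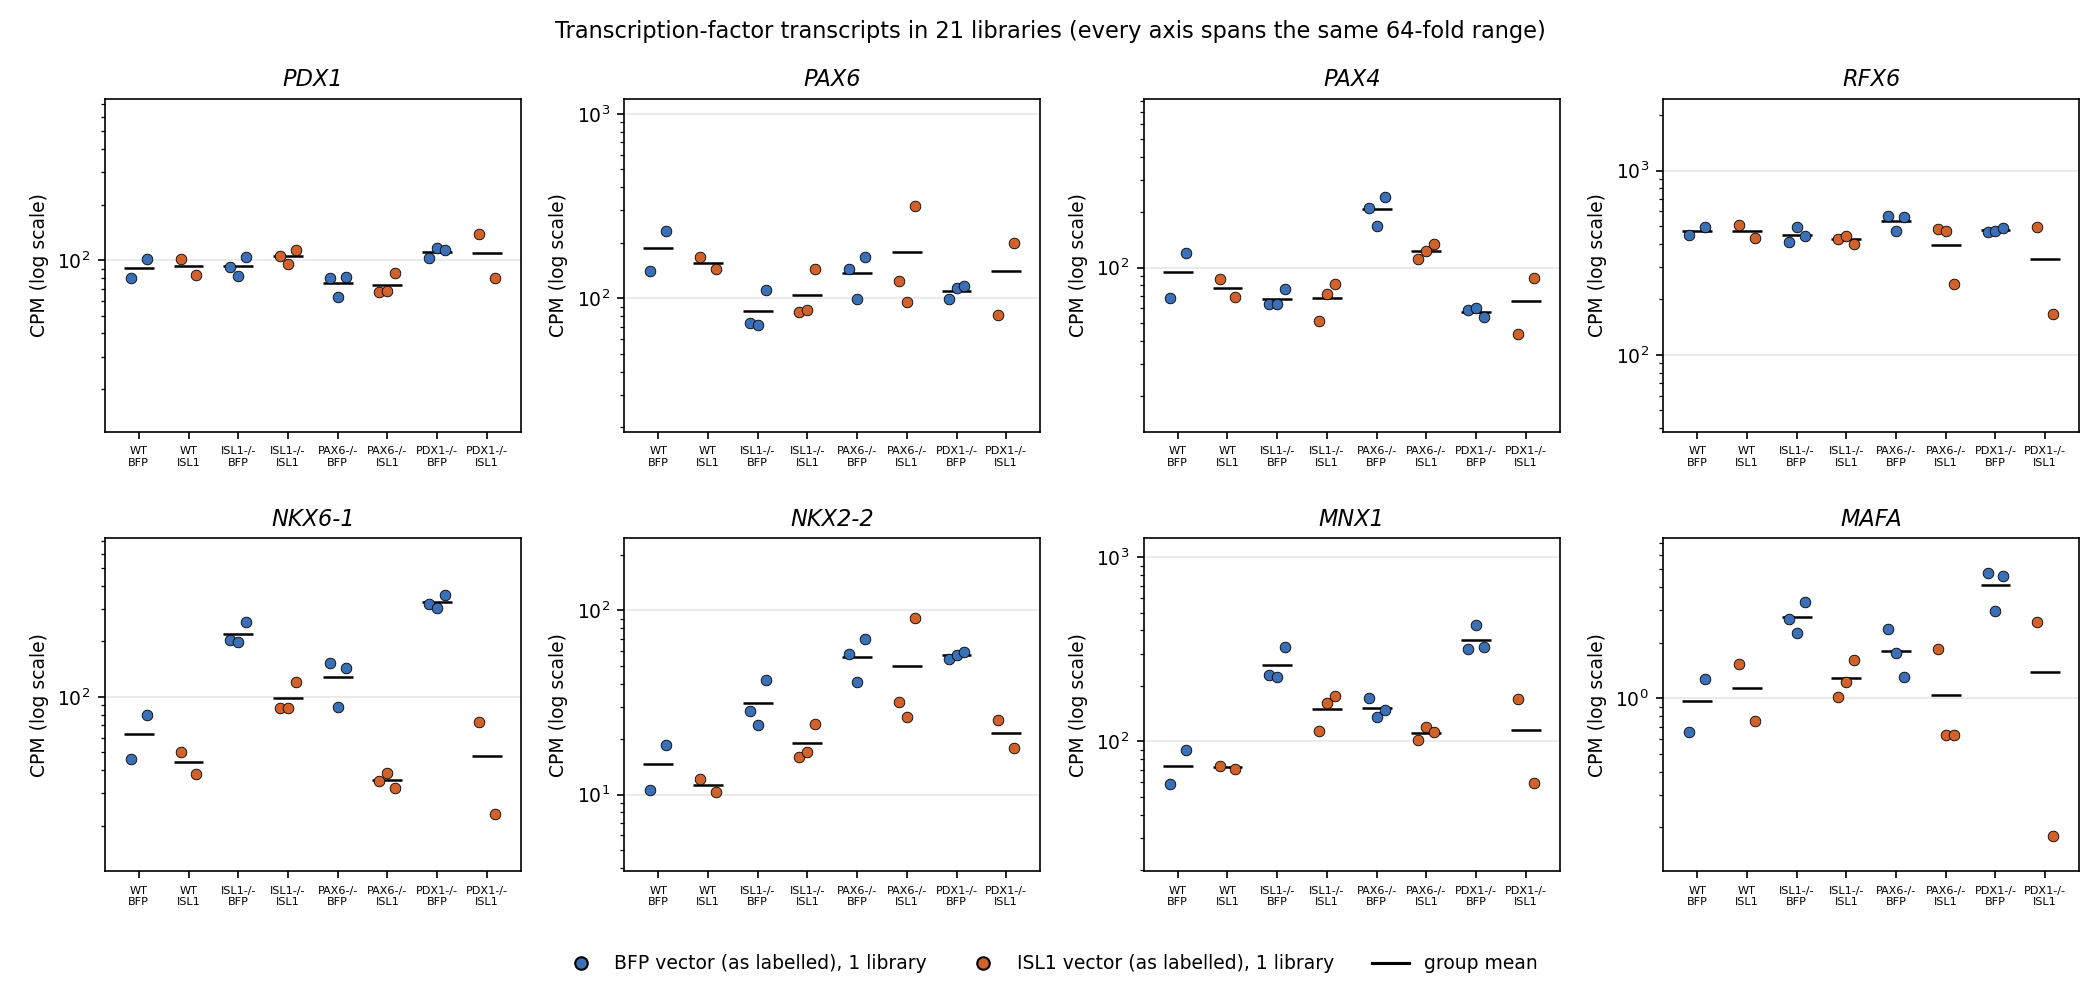
CPM of the 8 transcription-factor genes on log axes that all span the same range; each point is 1 library and each line a group mean. In BFP-labelled libraries (blue), NKX6-1, NKX2-2, MNX1 and MAFA lie above WT in each knockout, PAX4 lies above WT in PAX6-/-, and RFX6 keeps between 408 and 564 CPM.

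In counts, 3 of the 10 genes were called in ISL1-/- over WT (2 higher, 1 lower), 3 in PAX6-/- (2 higher, 1 lower) and 5 in PDX1-/- (3 higher, 2 lower). The share called among all genes tested was 5.59%, 5.51% and 9.68%. Groups did not overlap for 7, 7 and 9 of the 10, and for 51.6%, 48.5% and 52.4% of all genes tested, so a lack of overlap with the 2 WT libraries is common. The median log2 difference of the 10 was -0.02, 0.55 and 0.15, against 0.02, 0.03 and 0.03 over all genes. Without both high-mitochondrial libraries, 7, 6 and 8 of the 10 were called, as were 23.5%, 23.5% and 27.6% of all genes, so the gain in calls was general.

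With the ISL1 vector, the same comparisons could be made in libraries that share none with the BFP-labelled ones. IAPP fell in ISL1-/- (-3.93 ± 0.88, adjusted p = 0.0178) and in PAX6-/- (-3.51 ± 0.86, adjusted p = 0.0305; edgeR). The ISL1-/- call was lost without any of its own 3 libraries or either WT ISL1 library (adjusted p = 0.0645 to 0.0922), and the PAX6-/- call without PAX6-/- ISL1 replicate 1 or 2 or either WT ISL1 library (0.0841 to 0.144). NKX2-2 rose in PAX6-/- (2.14 ± 0.46, adjusted p = 0.0136), with 31.9, 26.4 and 91.0 CPM against 12.1 and 10.4 CPM in WT. Leaving out the highest of these, replicate 3, gave 1.37 ± 0.32 (adjusted p = 0.0284), and leaving out WT ISL1 replicate 1 or 2 ended the call (0.139 and 0.188). INS differed by -1.77 ± 0.95 in ISL1-/- and -2.36 ± 0.95 in PAX6-/- (adjusted p = 0.370 and 0.203, or 0.0127 and 0.00151 without PDX1-/- ISL1 replicate 4). Of the 10 genes, 1, 2 and 0 were called in ISL1-/-, PAX6-/- and PDX1-/-, against 3.72%, 3.56% and 0.634% of all genes.

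The count of 0 in PDX1-/- ISL1 rests on 2 libraries that disagree. INS gave 0.75 ± 1.05 (adjusted p = 0.723) with both and -5.54 ± 0.75 (adjusted p = 0.000499) with replicate 2 alone, whose spread was then taken from the other groups. IAPP likewise went from -0.02 ± 0.90 to -3.99 ± 0.86 (adjusted p = 0.0174), and MNX1 from 0.67 ± 0.37 to 1.24 ± 0.30 (adjusted p = 0.0354; edgeR). With replicate 4 alone, the log2 differences from WT were 1.73 for INS, -1.52 for RFX6 and -2.68 for MAFA (adjusted p = 0.0237, 0.00503 and 0.0239). With both libraries none of the 10 had an unadjusted p under 0.05, and DESeq2 called none.

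**Figure D4:**
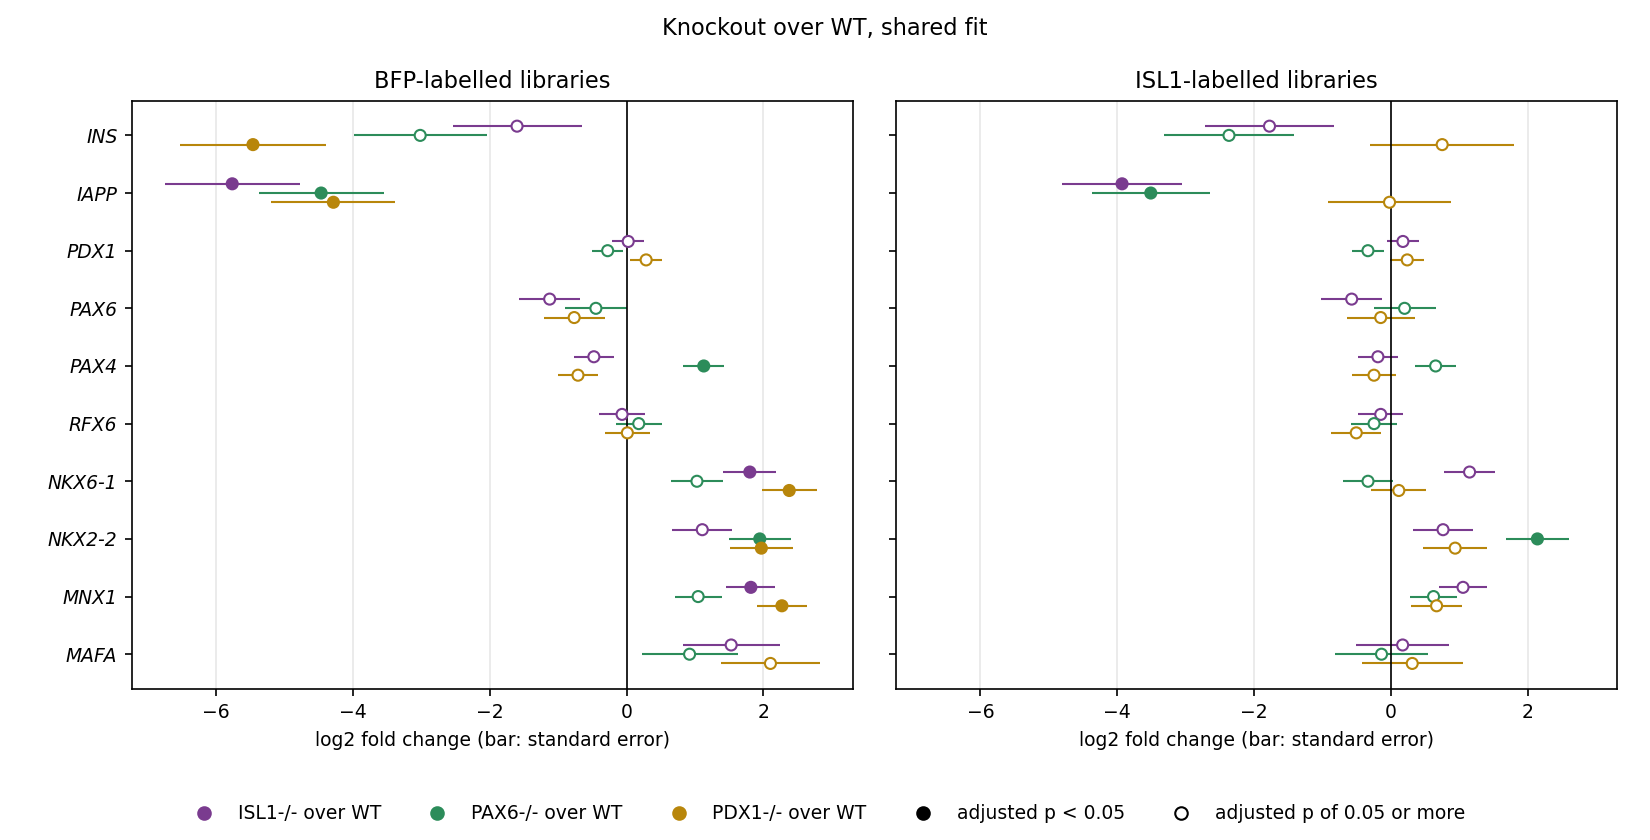
log2 fold change over WT of the 10 genes in BFP-labelled (left) and ISL1-labelled libraries (right), with standard errors; filled points passed an adjusted p of 0.05. In BFP-labelled cells IAPP is filled on the left in all 3 genotypes, and in ISL1-labelled cells the PDX1-/- points of INS (0.75) and IAPP (-0.02) lie near 0.

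Set against each other, the BFP-labelled knockouts differed in PAX4, INS, NKX6-1 and MNX1. PAX4 was higher in PAX6-/- than in ISL1-/- (ISL1-/- over PAX6-/-: -1.61 ± 0.27, adjusted p = 0.00206) and than in PDX1-/- (PAX6-/- over PDX1-/-: 1.84 ± 0.27, adjusted p = 0.000627; edgeR). NKX6-1 and MNX1 were lower in PAX6-/- than in PDX1-/- (-1.35 ± 0.33 and -1.22 ± 0.30, adjusted p = 0.0314 and 0.0324). Each of these 2 calls was lost when any of the 6 libraries compared was left out (adjusted p from 0.0594 to 0.183), and that of MNX1 also without WT ISL1 replicate 1 (0.0525). INS was higher in ISL1-/- than in PDX1-/- (3.86 ± 0.96, adjusted p = 0.0249), a call lost without ISL1-/- BFP replicate 1 or 2 or any PDX1-/- BFP library (0.0663 to 0.125). Left without PDX1-/- ISL1 replicate 4, the INS difference was 3.89 ± 0.41 (adjusted p = 1.93e-05). In all, 1 of the 10 genes was called in ISL1-/- over PAX6-/-, 1 in ISL1-/- over PDX1-/- and 3 in PAX6-/- over PDX1-/-, against 2.46%, 5.07% and 3.04% of all genes.

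Within a genotype, ISL1-labelled libraries were compared with BFP-labelled ones. NKX6-1 was the member called lower in the ISL1-labelled libraries of both PAX6-/- and PDX1-/- cells. In PAX6-/- ISL1 it had 35.1, 38.5 and 32 CPM, against 153, 87.8 and 143 CPM with BFP. PDX1-/- ISL1 libraries had 73.1 and 23 CPM, against 320.0, 302 and 357 CPM. In ISL1-/- cells the values were 87.2, 87.3 and 121 CPM against 203, 199.8 and 253 CPM, and in WT 50.3 and 38.4 CPM against 46.0 and 79.6 CPM. The groups did not overlap in any of the 3 knockouts and overlapped in WT; of all genes tested, 24.9% did not overlap in ISL1-/-, 16% in PAX6-/- and 33.6% in PDX1-/-.

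NKX6-1 fell by 1.86 ± 0.34 on the log2 scale in PAX6-/- (adjusted p = 0.0209) and by 2.76 ± 0.41 in PDX1-/- (adjusted p = 0.000707; edgeR). Without PAX6-/- ISL1 replicate 3 the PAX6-/- change was -1.80 ± 0.38 (adjusted p = 0.0663), and it was not called without PAX6-/- ISL1 replicate 1 (0.100), PAX6-/- BFP replicate 1 (0.130) or PAX6-/- BFP replicate 3 (0.115) either. Without PDX1-/- ISL1 replicate 4 the PDX1-/- change was -2.16 ± 0.38 (adjusted p = 0.0034). The ISL1-/- difference, -1.15 ± 0.33, had an adjusted p of 0.193, and of 0.0176 without PDX1-/- ISL1 replicate 4. In WT it was -0.50 ± 0.40 (adjusted p = 1). Fits restricted to the 2 groups compared called 0 of all genes tested in PAX6-/- and in PDX1-/-, NKX6-1 included, and limma voom, which called 22 in PDX1-/-, left NKX6-1 there at an adjusted p of 0.185.

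MNX1 and NKX2-2 were also lower in ISL1-labelled PDX1-/- libraries. MNX1 had 170.3 and 59.7 CPM against 317, 428 and 325 CPM (-1.63 ± 0.35, adjusted p = 0.00807), and NKX2-2 25.2 and 18.0 CPM against 54.4, 57.2 and 59.4 CPM (-1.40 ± 0.44, adjusted p = 0.0472; edgeR). Without replicate 4 neither was called (adjusted p = 0.0955 and 0.367), and for NKX2-2 the adjusted p passed 0.05 on leaving out any library other than PDX1-/- ISL1 replicate 2 and the PAX6-/- ISL1 ones. In PAX6-/- MNX1 had 101, 120 and 113 CPM against 173, 136 and 149 CPM, and in ISL1-/- 114, 162 and 176 CPM against 230.3, 224 and 327 CPM. These groups did not overlap either, but the differences were not called (-0.45 ± 0.30 and -0.79 ± 0.30, adjusted p = 0.572 and 0.425, edgeR). INS and IAPP rose in PDX1-/- by 6.47 ± 1.11 and 4.56 ± 0.91 (adjusted p = 0.00192 and 0.00513), and both rises came from replicate 4 alone. Fitted without it, the changes were 0.18 ± 0.52 and 0.58 ± 0.72 (adjusted p = 0.938 and 0.822).

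IAPP in ISL1-/- cells was 0.442, 0.831 and 0.666 CPM with the ISL1 label and 0.159, 0.156 and 0.124 CPM with BFP, without overlap, at 24 to 50 and 8 or 9 counts. The log2 difference was 2.13 ± 0.91 (adjusted p = 0.546, edgeR), and 2.1 ± 0.37, which was called, without both high-mitochondrial libraries. That exclusion was chosen after seeing the data, and calls over all genes also rose with it. IAPP was far below WT with either label. INS in the same libraries differed by 0.08 ± 0.85 (adjusted p = 1).

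The vector comparison called 5 of the 10 genes in PDX1-/- (2 higher, 3 lower), 1 in PAX6-/- and 0 in ISL1-/- and WT. The shares of all genes called were, in the order WT, ISL1-/-, PAX6-/-, PDX1-/-, 0.027%, 0.382%, 0.355% and 12.5%. Of the members, none had an unadjusted edgeR p under 0.05 in WT, and 3 had in ISL1-/- (IAPP, NKX6-1 and MNX1). DESeq2 called NKX6-1 in ISL1-/- and none in WT. The vector effect in each knockout minus that in WT called none of the 10. The share of all genes called was 0.00386% in ISL1-/-, 0% in PAX6-/- and 1.19% in PDX1-/-. For PAX6-/- this is 0 genes by edgeR, 916 at an unadjusted p under 0.05, 8 by DESeq2 and 136 by limma voom. The largest differences among the members were those of INS (6.22 ± 1.51, adjusted p = 0.0538), IAPP (4.27 ± 1.28, adjusted p = 0.114) and NKX6-1 (-2.26 ± 0.55, adjusted p = 0.0555) in PDX1-/-, which DESeq2 called. Without PDX1-/- ISL1 replicate 4 they were -0.07 ± 0.69, 0.30 ± 0.91 and -1.65 ± 0.45 by edgeR, and none was called. Without PAX6-/- ISL1 replicate 3, INS and NKX6-1 were called (adjusted p = 0.0306 and 0.0371). An effect of the vector on these genes was thus not shown to differ between a knockout and WT.

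**Figure D5:**
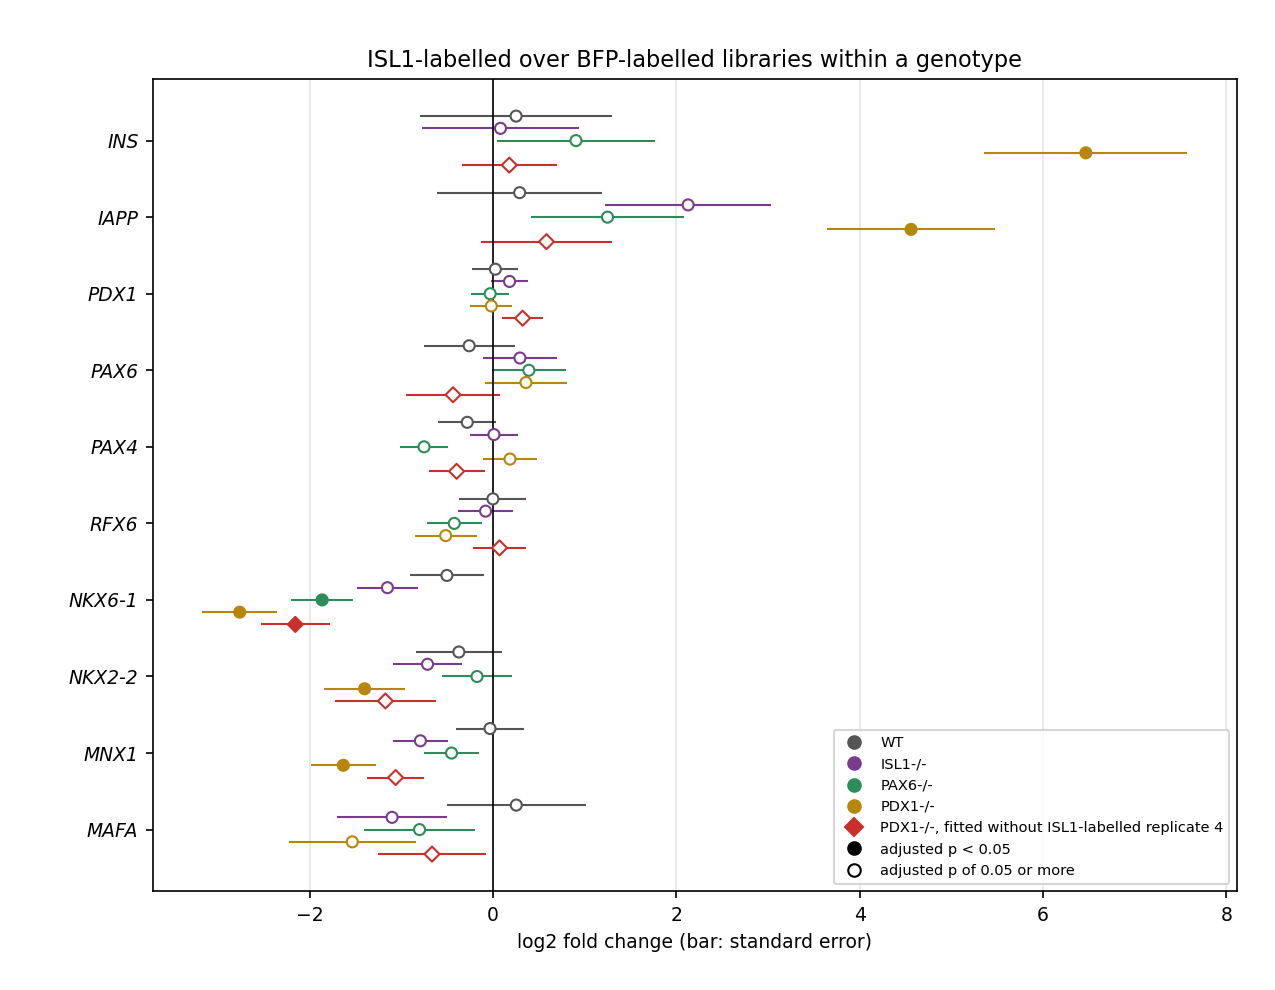
log2 fold change of ISL1-labelled over BFP-labelled libraries for the 10 genes in 4 genotypes, with standard errors, filled where the adjusted p was under 0.05; red diamonds give PDX1-/- without ISL1-labelled replicate 4. NKX6-1 keeps a filled point at -2.16 there, and INS and IAPP move to 0.18 and 0.58.

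Enterochromaffin cells, serotonin-producing endocrine cells that can arise in such cultures, have markers that moved in the same comparisons as NKX6-1 and MNX1. Of the 8 genes listed (TPH1, FEV, SLC18A1, DDC, LMX1A, ADRA2A, TAC1, CHGA), 4 were higher in ISL1-/- BFP than in WT BFP, 1 in PAX6-/- and 5 in PDX1-/-, and none was lower. Among all genes tested, 5.59%, 5.51% and 9.68% were called, more of them lower than higher in each. TPH1, which makes serotonin's precursor, rose by 2.08 ± 0.54 in ISL1-/- and 3.39 ± 0.58 in PDX1-/- (adjusted p = 0.0309 and 0.0016, edgeR); the ISL1-/- call was lost without WT BFP replicate 1 (0.308) or 3 (0.0933) or ISL1-/- BFP replicate 2 (0.0601) or 3 (0.106). With the ISL1 label, 0 were called in WT, 1 was lower in ISL1-/- and in PAX6-/-, and 5 were lower in PDX1-/-. In the same order, 0.027%, 0.382%, 0.355% and 12.5% of all genes were called. LMX1A was among the 5 lower in PDX1-/- (-2.52 ± 0.46, adjusted p = 0.00279 by edgeR and 0.0637 by limma voom).

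Summed without CHGA, which all islet endocrine cells express, these markers reached 944 to 1095 CPM in WT BFP and 637 to 693 CPM in WT ISL1. They reached 2473 to 3300 CPM in ISL1-/- BFP and 1112 to 1437 CPM in ISL1-/- ISL1. In PAX6-/- the ranges were 1492 to 2357 CPM with BFP and 669 to 1302 CPM with ISL1, and in PDX1-/- 3867 to 4476 CPM and 1379 to 1447 CPM. None of the 8 was at 0 in any library. The part of such cells in the NKX6-1, NKX2-2 and MNX1 results was not tested.

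The genes nearest to each member were found by the mean absolute difference of centred log2 CPM over the 21 libraries, among about 12438 genes with a mean of at least 5 CPM. For NKX6-1 they were POU2AF1 (0.19), LMX1A (0.24) and RASGRP1 (0.28), where the median candidate stood at 1.03. INS was nearest to GAST, the gastrin gene (0.51), then LINC02432 (0.76) and TDO2 (0.77), with a median of 1.71. IAPP had LMO2 (0.67), DUOXA2 (0.68) and CEACAM6 (0.78), and MNX1 had IMPDH1, H2AC11 and SAMD14 (0.25 to 0.26). NKX2-2 was nearest to ENSG00000289431, MAPT and AK5 (0.19 to 0.24), PAX4 to DSCAML1, NOS1AP and WNK3 (each 0.32), and MAFA to CACNA1B, LTBP2 and RAP1GAP (0.32 to 0.33). PAX6 had ST6GALNAC5, TBC1D30 and the gene that shares its exon bases, ELP4 (0.15 to 0.17). For PDX1 they were MFSD10, GPAA1 and ZNRF2P1 (0.14 to 0.16), and for RFX6 COG5, SENP1 and PPIP5K2 (0.06 to 0.07). All points share libraries and depth, so these distances are descriptions.

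Within the members, the smallest distance was that of PDX1 and RFX6 (0.35). It was near that of the median candidate (0.39 for each), as both genes varied little, by 0.24 and 0.23 from their own means. NKX6-1 stood 0.47 from MAFA and from MNX1, with medians of 1.03 for NKX6-1, 0.86 for MAFA and 0.73 for MNX1. INS and IAPP were 1.35 apart, below their medians of 1.71 and 1.80. Per kilobase of exon, WT BFP libraries averaged 9783 CPM for INS, and among the factors 115 for RFX6, 34.9 for PDX1, 31.5 for PAX4, 17.5 for MNX1, 16.0 for NKX6-1, 9.02 for PAX6, 6.86 for NKX2-2 and 0.341 for MAFA. IAPP stood at 3.76 on this scale, below 7 of the 8 factors.

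Genes of beta-cell function other than the members also differed from WT in BFP-labelled cells. Of 20 tested, 6 were lower and 1 higher in ISL1-/-, 9 lower and 2 higher in PAX6-/-, and 11 lower and 2 higher in PDX1-/-, with medians of -0.29, -0.95 and -0.97. Calls over all genes also leaned lower: 1015 lower and 433 higher in ISL1-/-, 843 and 582 in PAX6-/-, 1463 and 1043 in PDX1-/-. Together these were 5.59%, 5.51% and 9.68% of the genes tested. G6PC2, the islet glucose-6-phosphatase, averaged 95.6 CPM in WT BFP and fell in ISL1-/- and PDX1-/-, with log2 fold changes of -6.30 ± 0.95 and -5.82 ± 0.93 (adjusted p = 0.00107 and 0.00137). It had 0 counts in all 3 PAX6-/- BFP libraries, at least 5005-fold lower than WT BFP by a floor of 3 counts over the group. ENTPD3, a beta-cell surface ectonucleotidase, fell by 3.95, 4.3 and 4.39 in ISL1-/-, PAX6-/- and PDX1-/- (adjusted p = 0.00107, 0.00102 and 0.000563; edgeR). SYT13, a synaptotagmin, rose by 1.45, 1.43 and 2.28 (adjusted p = 0.000759, 0.00126 and 8.15e-05).

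Of 23 further islet transcription factors, 1 was higher and 2 lower in ISL1-/- BFP, 2 higher and 1 lower in PAX6-/- BFP, and 4 higher and 2 lower in PDX1-/- BFP, with medians of 0.30, 0.28 and 0.01. All genes tested were called at shares of 5.59%, 5.51% and 9.68%. NEUROG3, the factor that starts endocrine differentiation, rose in PAX6-/- from a mean of 147 to 1050.0 CPM (2.83 ± 0.39, adjusted p = 0.000468). INSM1, a zinc-finger factor of endocrine cells, and FEV, a factor of serotonergic cells, rose in PDX1-/- (each by 1.91, adjusted p = 0.0102 and 0.012). Both calls were lost without WT BFP replicate 1 (0.173 and 0.148) or 3 (0.0518 and 0.085). HHEX, a delta-cell factor, fell in all 3 knockouts, by 2.42, 1.85 and 2.27 (adjusted p = 0.000221, 0.00243 and 0.000415). With the ISL1 label HHEX rose by 2.64 in ISL1-/-, 2.13 in PAX6-/- and 2.63 in PDX1-/- (adjusted p = 0.000346, 0.00487 and 0.000115; edgeR), the last not called by limma voom (0.125).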

How the data were processed

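SMART-Seq v4 cDNA libraries from 21 samples had been sequenced. The authors deposited 1 table of raw counts per gene; STAR 2.7.11b, featureCounts 2.1.1 and GRCh38 are named in the submitters' processing notes. The annotation release, the strand setting and the handling of multi-mapping reads were not given in the sources used here. Groups and replicate numbers follow the sample descriptions, which differ from the titles for 3 libraries. A gene entry broken over 3 lines was left out, which left 62699 genes.

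Counts were fitted with edgeR 4.0.16 in R 4.3.3: TMM scaling, filterByExpr by group (minimum count 10, total 15), and quasi-likelihood F tests in 1 model of 21 libraries with a coefficient per group. Benjamini-Hochberg adjustment ran over all 25884 genes tested, and adjusted p under 0.05 was called. P-values set each group difference against a spread between libraries that was estimated over all 21. Whether that spread includes differences between clones is not known. Symbols came from a gene table, which matched all IDs. Tested on simulated data for PDX1-/- over WT (25198 genes), the fit recovered 84% of log2 changes of 2 and 100% of changes of 4, with 10 false calls. Changes were put only into genes averaging above 10 CPM, more than IAPP or MAFA. Counts were drawn from 1 mean per gene for all groups, so no simulated library stood apart as the 2 high-mitochondrial ones do. The recovery therefore does not apply to IAPP and MAFA and need not hold in the real data.

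The members and gene lists were chosen with earlier results of these data known. A listed gene is not reported here and was left out of the list counts and sums. All members are named; each list could lend the 2 called genes that rose most and the 2 that fell most, if the higher group averaged 5 CPM or more, and each member its nearest 3 profiles. Alternatives were RLE scaling, DESeq2 1.42.0, limma 3.58.1 voom with sample weights, other count filters, fits of only the groups compared, a replicate block and leaving out each library. For the PAX6-/- vector effect, deviations of same-numbered libraries correlated at 0.155, 0.391 and 0.333, and for that of ISL1-/- at 0.183, 0.099 and 0.293. Libraries of different numbers were not compared in this way, so whether the numbers mark pairs was not tested. A pairing would rest on the data, not on a label, and the reported fit did not use one.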

Additional observations from a re-analysis of the deposited data

How the results depend on the processing

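RLE scaling changed no count of called members. The counts below are out of 10, each with the percent of all genes called in the same fit in parentheses, the value reported first. Both high-mitochondrial libraries were left out together as an alternative chosen after seeing the data ("without both"). For the ISL1-/- vector effect, 0 (0.382%) became 1 (1.49%) by DESeq2, 1 (1.87%) with the replicate block, 5 (8.2%) by limma voom, 4 (6.51%) in the groups compared alone and 3 (4.93%) without both. The PAX6-/- vector effect went from 1 (0.355%) to 3 (9.96%) by voom, 0 (0%) in its own groups and 3 (4.97%) without both. That of PDX1-/- went from 5 (12.5%) to 1 (2.09%) with the block, 0 (0.085%) by voom, 0 (0%) in its own groups and 3 (8.92%) without both. Over WT with BFP, ISL1-/- went from 3 (5.59%) to 7 with the block (12.2%), by voom (26.6%), in own groups (25.4%) and without both (23.5%). PAX6-/- went from 3 (5.51%) to 5 by DESeq2 (10.7%) and to 6 with the block (13%), by voom (25.9%), in own groups (21.8%) and without both (23.5%). PDX1-/- went from 5 (9.68%) to 8 by voom (32.2%), in own groups (30.6%) and without both (27.6%). With the ISL1 label, ISL1-/- went from 1 (3.72%) to 3 (8.47%) by DESeq2, 4 (9.36%) with the block, 5 by voom (24.5%) and in own groups (24.6%), and 4 (19.5%) without both. PAX6-/- went from 2 (3.56%) to 4 (16.3%) by voom, 0 (0.185%) in own groups and 4 (12.2%) without both, and PDX1-/- from 0 (0.634%) to 3 (2.96%) with the block and 4 (6.66%) without both. In the order block, voom, own groups and without both, ISL1-/- over PAX6-/- went from 1 (2.46%) to 3 (4.91%), 6 (12.4%), 4 (7.26%) and 5 (8.74%). ISL1-/- over PDX1-/- went from 1 (5.07%) to 2 (11.5%), 4 (27.7%), 4 (24.3%) and 3 (21.7%), and PAX6-/- over PDX1-/- from 3 (3.04%) to 5 (7.68%), 6 (15.1%), 6 (14.2%) and 6 (16.3%). The difference of vector effects went from 0 (0%) to 1 (0.525%) by voom in PAX6-/-. In PDX1-/- it went from 0 (1.19%) to 3 (5.17%) by DESeq2, 3 (1.25%) with no filter, 2 (2.28%) with a minimum count of 50 and 1 (2.36%) without both.

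Leaving out each library gave 0 to 1 members for the vector effect in ISL1-/- (0.0544% to 1.32% of all genes) and PAX6-/- (0.0503% to 1.86%) and 1 to 7 in PDX1-/- (2.41% to 41.8%). It gave 1 to 4 (1.66% to 10.1%), 0 to 6 (0.998% to 10.6%) and 4 to 7 (2.66% to 14.5%) for ISL1-/-, PAX6-/- and PDX1-/- over WT with BFP. With the ISL1 label it gave 0 to 4 (0.874% to 7.54%), 0 to 3 (0.658% to 6.73%) and 0 to 3 (0% to 32.2%). The knockout pairs gave 1 to 3 for ISL1-/- over PAX6-/- (1.36% to 3.84%), 0 to 2 for ISL1-/- over PDX1-/- (2.05% to 9.3%) and 1 to 5 for PAX6-/- over PDX1-/- (1.33% to 5.79%). The PDX1-/- difference of vector effects gave 0 to 6 (0.047% to 30.8%).

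Of the 160 member differences, 51 changed sign under at least 1 alternative, and in 49 of these the gene was called neither as reported nor where the sign differed. The other 2, and the named list genes whose sign turned with a call in 1 of the fits, are in comparisons with PDX1-/- ISL1. INS over WT was -5.52 with the replicate block and -5.54 without both libraries, and -5.54 to 1.73 over the leave-outs. MAFA over WT ranged from -2.68 to 1.19 over the leave-outs. The vector effect on DLK1 ranged from -0.011 to 3.37, and that on G6PC2 from -0.47 to 4.85, with -0.54 under the block and -0.45 without both. By construction, the block gives PDX1-/- ISL1 replicate 4 a number of its own, so that it does not enter those differences. With the replicate block, the PAX6-/- vector effect called 578 genes in place of 92, and 1 member in both fits, NKX6-1 at -1.83 (adjusted p = 0.00081, edgeR). IAPP and MAFA rest on few counts, down to 8 and 6 in a library, which limits their precision.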

Other observations

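INS shares 37.5% of its exon bases with the read-through gene INS-IGF2 on the same strand, which had 0 or 1 counts per library. NKX2-2 shares 30.1% of its exon bases with NKX2-2-AS1, which had 0 counts in every library, and 13.9% with ENSG00000289590, which had 1 to 46. PAX6 shares 191 exon bases with PAUPAR, an antisense RNA with 363 to 1521 counts. How the counting treated reads in shared bases was not given in the sources used here.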
